A study of Sorghum bicolor with 12 samples.

Results

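Of the 34352 loci in the expression table, 37 had at least 1 FPKM in all 6 libraries of the sweet sorghum line Roma and at most 0.05 FPKM in all 6 libraries of the line M-81E. The loci were taken from the 30167 that carry a SORBI gene name, the name of an annotated sorghum gene, and they made up 0.298% of the 12418 SORBI loci with at least 1 FPKM in every Roma library. FPKM is the number of sequenced fragments scaled by the length of the exons and by all fragments mapped in the library, so levels of different genes can be compared per length. The loci were chosen by their measured FPKM in Roma and M-81E, so the difference between the lines is described without a test. The mirrored choice, at least 1 FPKM in all M-81E libraries and at most 0.05 FPKM in all Roma libraries, gave 40 loci.

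Roots were collected from plants treated at the 3-leaf stage, and each of the 4 groups had 3 libraries. Roma-salt and Roma-CK were roots of Roma, a line the study describes as salt-sensitive, with NaCl and without it. The study raised NaCl in steps and took plants after 24 h at the final concentration, so exposure to NaCl was longer than 24 h. M-81E-salt and M-81E-CK were roots of the salt-tolerant line M-81E under the same treatments. The study calls the libraries biological replicates, but the labels do not say how plants were pooled, so the p-values given here measure the spread between these libraries. Each line is a single strain, so salt tolerance and any other difference between these 2 strains cannot be told apart.

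Roots meet saline soil first, and their response runs largely through plant hormones. Abscisic acid, ethylene and jasmonate each act through families of transcription factors and repressors, and the hormone responses restrain growth and induce protective genes. Lines of one crop species often differ in which members of large gene families they carry and transcribe, and families of immune receptors are a common example.

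The depths of the 2 lines overlapped. The FPKM carry no read counts, but the spacing of low values at 6904 loci gave depths relative to one library, M-81E-CK replicate 1, of 0.814 to 1.04 in Roma and 0.851 to 1.03 in M-81E. Between 27038 and 27972 loci were above 0 FPKM in a Roma library, and between 26880 and 27593 in an M-81E library. Within Roma, the relative depth was 0.993 to 1.04 in Roma-salt and 0.814 to 0.940 in Roma-CK, without overlap. Loci above 0 FPKM numbered 27623 to 27972 in Roma-salt and 27038 to 27367 in Roma-CK, also without overlap. Genes annotated for the Casparian strip, the barrier in the root endodermis, summed to 61.6 to 88.5 FPKM in Roma and 71.0 to 98.9 FPKM in M-81E over 10 loci. Genes annotated as nitrate transporters, which take up nitrate in roots, summed to 216 to 781 FPKM in Roma and 130 to 245 FPKM in M-81E over 28 loci, so this sum differed more between the lines. Genes of light harvesting, a leaf function, summed to 10.4 to 25.5 FPKM in Roma and 8.76 to 31.8 FPKM in M-81E over 17 loci. Of the SORBI loci with at least 1 FPKM in 3 or more libraries of a line, 4.59% in Roma and 4.67% in M-81E were listed at 0 in another library of the same line, so a single 0 in this table can be a failed estimate. In bulk roots, fewer cells of a type and less RNA per cell cannot be told apart.

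The 37 loci were unequal in level. One averaged over 100 FPKM in Roma, 4 averaged 10 to 100 FPKM, 2 averaged 5 to 10 FPKM, 18 averaged 2 to 5 FPKM and 12 averaged 1 to 2 FPKM. Their median of the Roma mean was 2.48 FPKM, with quartiles of 1.95 and 4.41, against a median of 6.52 FPKM with quartiles of 3.31 and 15.1 in the 12418 SORBI loci expressed throughout Roma. Summed over the loci, the mean level was 608.4 FPKM in Roma-salt and 403.7 FPKM in Roma-CK, and the highest locus alone held 66.0 to 72.3% of the sum in the Roma-salt libraries and 56.3 to 61.8% in the Roma-CK libraries.

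**Figure D1:**
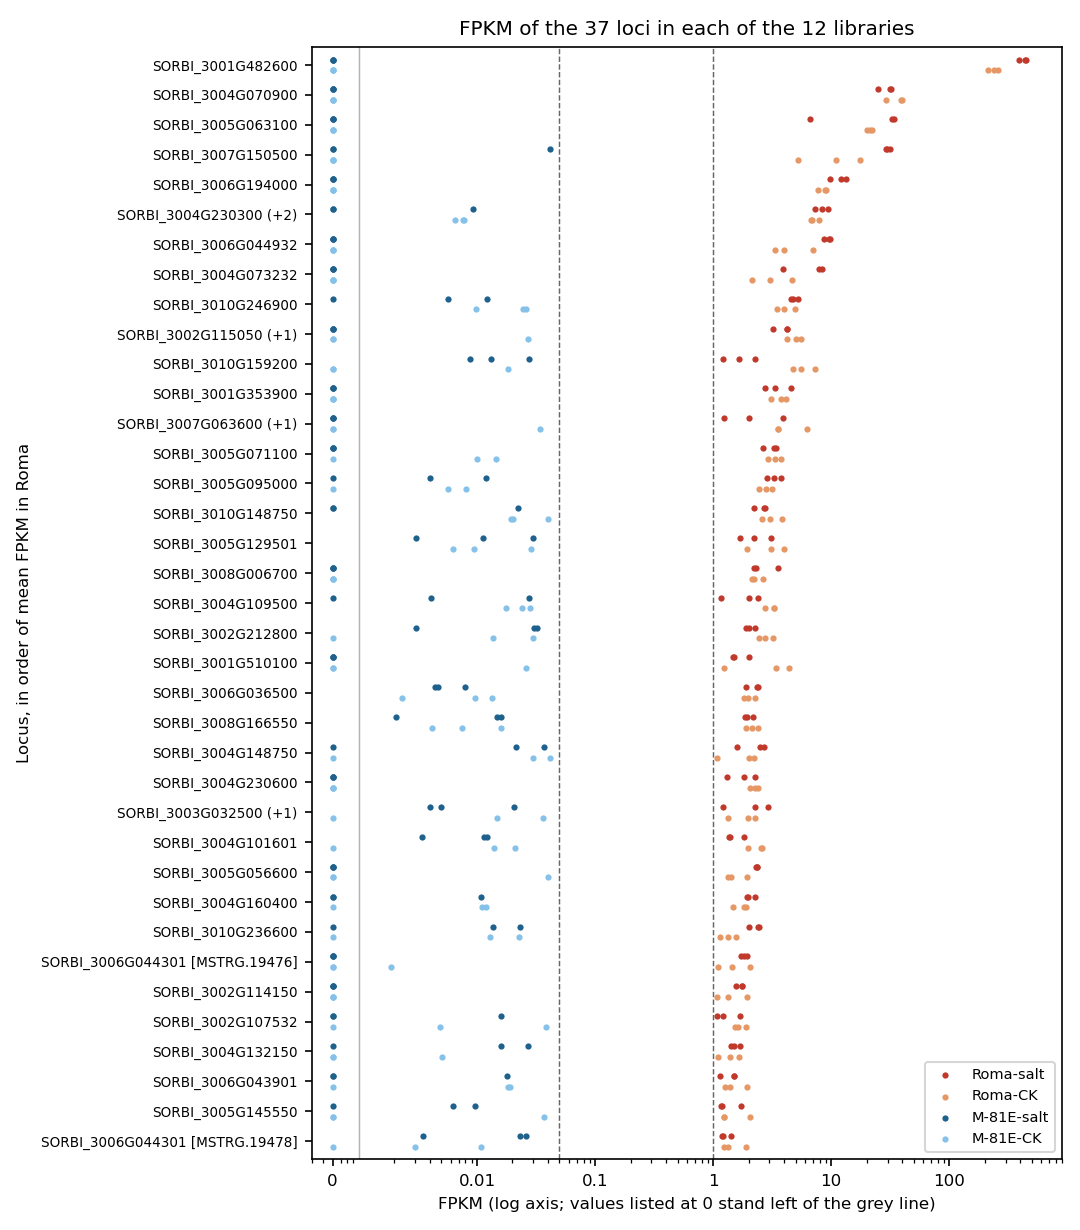
FPKM of each of the 37 loci (rows, in order of mean FPKM in Roma) in each of the 12 libraries, on a log axis, with 1 point per library. Dashed lines mark the thresholds of 1 and 0.05 FPKM, points left of the grey line are listed at 0, +1 and +2 count further SORBI names of a locus, and 10 of the loci are at 0 in all 6 M-81E libraries.

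The label of expression in Roma only held with a qualification. In M-81E, 10 of the 37 loci were listed at 0 in all 6 libraries, while 27 were above 0 in at least 1 library and 3 were above 0 in all 6. The highest M-81E values were 0.0412 FPKM at SORBI_3004G148750 and at SORBI_3007G150500 and 0.0398 FPKM at SORBI_3010G148750. An FPKM at or near 0 does not tell a gene that was not transcribed from one whose reads did not align. The loci stood at the end of a thin tail. Of the 12418 SORBI loci expressed throughout Roma, 11965 or 96.4% exceeded 1 FPKM in at least 1 M-81E library, and the highest M-81E value lay between 0.05 and 0.1 FPKM at 29 loci and between 0.1 and 0.2 FPKM at 36 loci.

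The thresholds cut through similar loci. Just inside the lower limit for Roma were SORBI_3002G107532, SORBI_3002G114150 and SORBI_3004G148750, whose lowest Roma values were 1.07, 1.08 and 1.08 FPKM. Just outside were SORBI_3002G322200, SORBI_3007G131200 and SORBI_3004G037300, with lowest Roma values of 0.976, 0.974 and 0.955 FPKM. Just above the upper limit for M-81E were SORBI_3004G002901, SORBI_3002G134800 and SORBI_3007G114600, with highest M-81E values of 0.0519, 0.0535 and 0.0561 FPKM.

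Few of the loci carried a functional annotation. A GO term was given for 10 of the 37 loci (27.0%), against 90.1% of the SORBI loci expressed throughout Roma, and a KEGG ortholog for 8 (21.6%), against 53.0%. The description was empty for 14 loci and named a hypothetical protein for the other 23. By GO term and ortholog, 3 loci were assigned to DNA replication, repair and unwinding, 2 to transcription and its regulation, 2 to nucleotide-binding immune receptors and 2 to other enzymes. SORBI_3006G194000 carried only a nuclear location, and 27 loci (73.0%) stayed uncharacterized, against 9.67% of the SORBI loci expressed throughout Roma. No locus fell in the lists of protein kinases, ubiquitin ligases, cytochrome P450 enzymes, glycosyltransferases, glutathione transferases and peroxidases, transporters, proteases, ribosomal proteins, chaperones, lipid and cell wall enzymes or transposon-derived genes. Each of these lists held between 0 and 6.64% of the SORBI loci expressed throughout Roma, so with 10 annotated members a count of 0 in a list says little.

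The highest level by far belonged to a gene of jasmonate signaling. SORBI_3001G482600, on chromosome 1, carries the KEGG ortholog K13464, jasmonate ZIM-domain (JAZ) protein. In Arabidopsis, JAZ proteins bind and repress transcription factors such as MYC2 until the hormone triggers their degradation, and jasmonate in turn induces JAZ genes. SORBI_3001G482600 had 387, 439 and 443 FPKM in Roma-salt, against 213, 258 and 240 FPKM in Roma-CK, with 0 listed for all 6 M-81E libraries. All 3 Roma-salt libraries lay above all 3 Roma-CK libraries. With a mean of 330.1 FPKM it ranked 72 among the SORBI loci in Roma.

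Other JAZ genes were expressed in both lines. The table holds 16 other loci with the same ortholog, and 9 of them had at least 1 FPKM in all 6 Roma libraries and 8 in all 6 M-81E libraries. Examples chosen after their values were seen are SORBI_3002G374100 with 205.6 to 272 FPKM in Roma and 167 to 225 FPKM in M-81E, and SORBI_3001G343900 with 105 to 174 FPKM in Roma and 136 to 189 FPKM in M-81E. The levels of both overlapped between the lines.

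The JAZ locus next in gene order went the other way between the lines. SORBI_3001G482700 had 18.2, 22.5 and 58.4 FPKM in Roma-salt and 46.9, 44.6 and 34.5 FPKM in Roma-CK, against 75.3, 96.2 and 111 FPKM in M-81E-salt and 106, 108 and 99.7 FPKM in M-81E-CK. Every M-81E library lay above every Roma library at this locus. The locus after it, SORBI_3001G482800, was at 5.76, 0 and 0 FPKM in Roma-salt and 0, 0 and 0.00705 FPKM in Roma-CK, against 3.94, 4.06 and 0 FPKM in M-81E-salt and 59.2, 0 and 49.3 FPKM in M-81E-CK.

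Changes between 0 and over 1 FPKM among libraries of the same line were not limited to SORBI_3001G482800. They were seen at 5 of the 16 JAZ loci, counted as a 0 in 1 library and over 1 FPKM in another of the same line. At SORBI_3001G259700 the Roma libraries ranged from 137 to 212 FPKM, while 4 M-81E libraries were listed at 0 and the others at 129.8 and 177.8 FPKM. Whether reads of these neighbouring JAZ genes can be assigned to one of several copies was not tested, since no sequence was used here. Summed over SORBI_3001G482600, SORBI_3001G482700 and SORBI_3001G482800, the level was 411 to 502 FPKM in Roma-salt and 260.0 to 303 FPKM in Roma-CK. In M-81E, the sum was 79.3 to 111 FPKM in M-81E-salt and 108 to 165 FPKM in M-81E-CK. Most of the Roma sum came from SORBI_3001G482600, which was chosen for its difference between the lines. The sum is therefore no test of how reads were assigned.

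**Figure D2:**
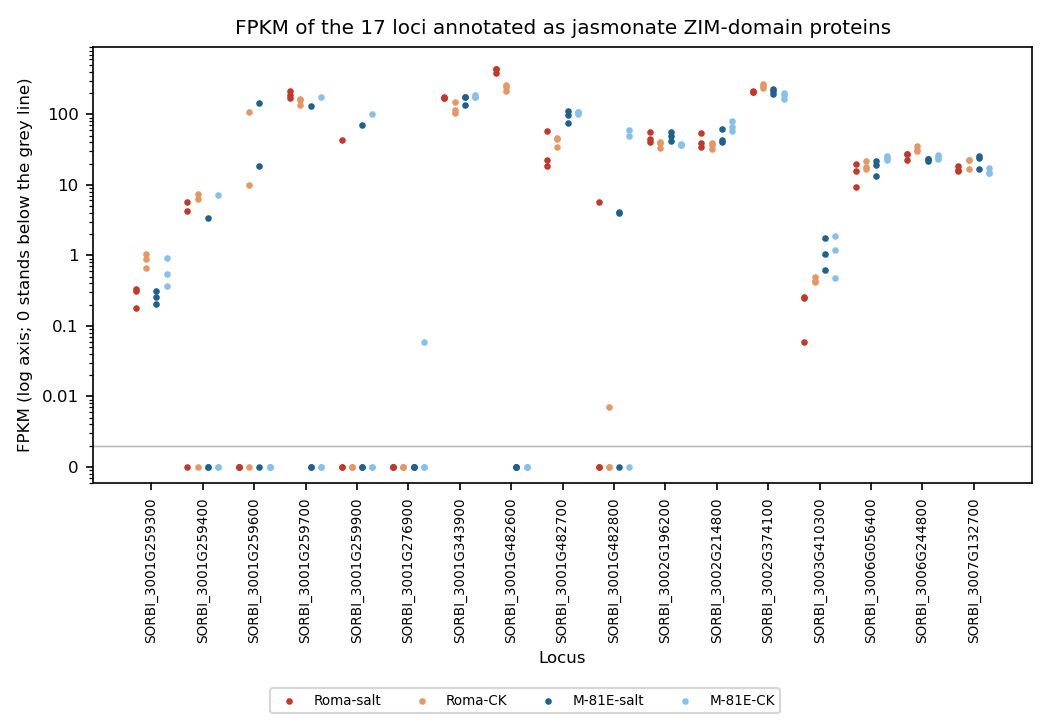
FPKM on a log axis of SORBI_3001G482600 and the 16 other loci with the JAZ ortholog, with 1 point per library and points below the grey line listed at 0. SORBI_3001G482600 stands between 213 and 443 FPKM in Roma and at 0 in M-81E, and the others have overlapping values in both lines, lie higher in M-81E (SORBI_3001G482700), or change between 0 and a high value within a line.

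The second locus placed in the regulatory group was SORBI_3004G070900 on chromosome 4. Its GO terms are those of a sequence-specific DNA-binding transcription factor that responds to ethylene, abscisic acid, salicylic acid, jasmonic acid, chitin and cadmium ion. Its KEGG entry, K02259, names oxidative phosphorylation and porphyrin metabolism, so the annotations conflict. It had 31.5, 32.2 and 25.1 FPKM in Roma-salt, against 29.2, 40.0 and 39.1 FPKM in Roma-CK, with 0 listed for all M-81E libraries. The ranges of Roma-salt and Roma-CK overlapped.

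Annotation for DNA replication and repair was given for 3 loci. One covers the names SORBI_3004G230300, SORBI_3004G230400 and SORBI_3004G230500, with GO terms for DNA helicase activity and telomere maintenance and the ortholog K07466, the large subunit of replication protein A, which coats single-stranded DNA. The locus holds 14 transcripts and its description also names a gene of another chromosome, so these annotations cannot be assigned to a single gene. It had 9.36, 8.31 and 7.29 FPKM in Roma-salt and 6.90, 6.77 and 7.83 FPKM in Roma-CK, against at most 0.00929 FPKM in M-81E. The Roma groups overlapped, and M-81E stood far below both.

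SORBI_3004G230600, directly after it in gene order, also met the rule. It had 1.82, 2.24 and 1.30 FPKM in Roma-salt and 2.39, 2.26 and 2.07 FPKM in Roma-CK, with 0 listed for all M-81E libraries. These were the only members with no other SORBI locus between them. Directly before the pair, SORBI_3004G230200 was expressed in both lines, with 0.856 to 2.32 FPKM in Roma and 0.0860 to 3.72 FPKM in M-81E. Directly after the pair, SORBI_3004G230650 was listed at 0 in Roma and reached at most 0.276 FPKM in M-81E. The locus after that, SORBI_3004G230700, had 0.121 to 0.848 FPKM in Roma and 0.436 to 1.30 FPKM in M-81E.

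Other loci with the replication protein A ortholog were widely expressed, with at least 1 FPKM in all 6 Roma libraries at 17 of 31 and in all 6 M-81E libraries at 18 of 31. One of them, SORBI_3010G165700, named after its values were seen, had the opposite pattern, with 0.00330 to 0.0151 FPKM in Roma and 11.5 to 17.6 FPKM in M-81E.

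SORBI_3005G071100 is annotated as proliferating cell nuclear antigen (PCNA), the ring that holds DNA polymerases on the template during replication. It had 3.28, 2.67 and 3.41 FPKM in Roma-salt and 3.74, 3.33 and 2.94 FPKM in Roma-CK, against at most 0.0145 FPKM in M-81E. The main PCNA level came from another locus, SORBI_3004G336600, with 19.2 to 35.8 FPKM in Roma and 5.39 to 20.5 FPKM in M-81E. PCNA transcripts were therefore present in M-81E.

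SORBI_3004G109500 carries GO terms for a photolyase, an enzyme that reverses ultraviolet damage to DNA with the energy of light, although its KEGG entry is an inositol phosphate kinase and its description names a gene of another chromosome. It had 1.18, 2.39 and 2.01 FPKM in Roma-salt, against 2.74, 3.26 and 3.31 FPKM in Roma-CK, and at most 0.0281 FPKM in M-81E. All 3 Roma-salt libraries lay below all 3 Roma-CK libraries.

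Immune receptors made up 2 of the loci, both of the nucleotide-binding, leucine-rich repeat (NLR) class, which detect pathogen effectors inside the cell. SORBI_3005G095000 had 3.30, 2.83 and 3.73 FPKM in Roma-salt and 3.13, 2.82 and 2.45 FPKM in Roma-CK, against at most 0.0118 FPKM in M-81E. SORBI_3008G166550 had 2.20, 1.93 and 1.85 FPKM in Roma-salt and 2.13, 1.91 and 2.41 FPKM in Roma-CK, and was above 0 in all 6 M-81E libraries, at 0.00206 to 0.0161 FPKM. The receptors formed 5.41% of the 37 loci and 5.14% of the SORBI loci expressed throughout Roma, so their share was close to that of the background.

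The table lists 280 other loci with the same ortholog, K13457, of which 95 had at least 1 FPKM in all Roma libraries and 79 in all M-81E libraries. The description of SORBI_3008G166550 names the nearby SORBI_3008G166400. That locus was also higher in Roma, with 7.84 to 13.1 FPKM in Roma and 0.439 to 1.54 FPKM in M-81E, and its groups did not overlap between the lines.

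The enzymes were expressed at a low level. SORBI_3002G212800, annotated as a dioxygenase, had 2.25, 1.89 and 2.01 FPKM in Roma-salt, against 3.19, 2.45 and 2.76 FPKM in Roma-CK. SORBI_3001G510100 carries the ortholog K01904, 4-coumarate-CoA ligase, which activates phenolic acids for lignin and flavonoids, and a GO term for butyrate-CoA ligase. It had 1.47, 2.01 and 1.51 FPKM in Roma-salt, against 1.24, 3.42 and 4.39 FPKM in Roma-CK, where the lowest and the highest library differed 3.54-fold.

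The loci with no functional annotation, or with a nuclear location only, ranged widely in level. SORBI_3005G063100 had 34.1, 6.66 and 32.6 FPKM in Roma-salt, against 21.4, 22.0 and 20.3 FPKM in Roma-CK, with 0 listed for M-81E. One Roma-salt library thus lay below, and the others above, all Roma-CK libraries, and this 5.11-fold gap was the largest within a group among the 37 loci. SORBI_3006G194000 had 12.1, 9.78 and 13.4 FPKM in Roma-salt, against 8.83, 8.96 and 7.69 FPKM in Roma-CK, and was at 0 in M-81E. SORBI_3010G246900 had 5.24, 4.53 and 4.70 FPKM in Roma-salt and 3.95, 3.46 and 4.95 FPKM in Roma-CK. The locus of SORBI_3002G115050 and SORBI_3002G115075 had 4.19, 4.22 and 3.23 FPKM in Roma-salt and 5.51, 4.26 and 5.08 FPKM in Roma-CK. Both of these stayed at or below 0.0271 FPKM in M-81E.

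Wide gaps between libraries of a group were also seen at the locus of SORBI_3007G063600 and SORBI_3007G063700, 3.15-fold in Roma-salt, and at the locus of SORBI_3003G032500 and SORBI_3003G032600, 2.42-fold in Roma-salt. The median SD over the members was close to that of the background. The median for log2(FPKM + 1) was 0.152 in Roma-salt and 0.176 in Roma-CK, against 0.153 in Roma-salt and 0.187 in Roma-CK for the SORBI loci expressed throughout Roma.

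The loci differed from the background in the kind of gene model. At 9 loci, the table listed only transcripts built by the assembler StringTie, and 28 (75.7%) had an annotated transcript, against 97.4% of the SORBI loci expressed throughout Roma. The SORBI name of 10 loci (27.0%) also stood at another locus, against 5.82%, and 4 loci (10.8%) carried several names, against 8.15%. At 15 loci (40.5%) the gene number did not end in 00, against 5.09%. The gene number in the description was the same as that in the name at 8 of the 13 members with 1 SORBI name and 1 such number in the description, against 89.1% of the 10581 loci of the table with both.

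A SORBI name that was near 0 at one locus in M-81E was not always silent there. Of the 10 loci that share their name, 5 had another locus of that name above 0.05 FPKM in M-81E, and 2 had one with at least 1 FPKM in every M-81E library. SORBI_3005G056600 had 2.35, 2.31 and 2.35 FPKM in Roma-salt and 1.94, 1.41 and 1.35 FPKM in Roma-CK at the locus that met the rule, while the second locus of that name had 45.1 to 66.4 FPKM in Roma and 46.8 to 65.0 FPKM in M-81E. The second locus of SORBI_3004G073232 likewise had 1.58 to 2.96 FPKM in Roma and 2.06 to 2.84 FPKM in M-81E. For both names, the locus near 0 in M-81E held StringTie transcripts only, and the locus with the annotated transcript was expressed in both lines.

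For 3 further names the second locus had intermediate values. The second locus had 0.980 to 1.51 FPKM in Roma and 0.118 to 0.277 FPKM in M-81E for SORBI_3001G353900, and 1.58 to 1.90 FPKM in Roma and 0.702 to 0.863 FPKM in M-81E for SORBI_3010G236600. For SORBI_3002G114150 it was lower in Roma, with 0.0835 to 0.299 FPKM, against 0.691 to 0.915 FPKM in M-81E. The remaining loci shared the names SORBI_3005G063100, SORBI_3007G150500, SORBI_3006G194000 and SORBI_3006G044301 with loci that were also near 0 in M-81E, and SORBI_3006G044301 itself named 2 of the 37 loci.

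**Figure D3:**
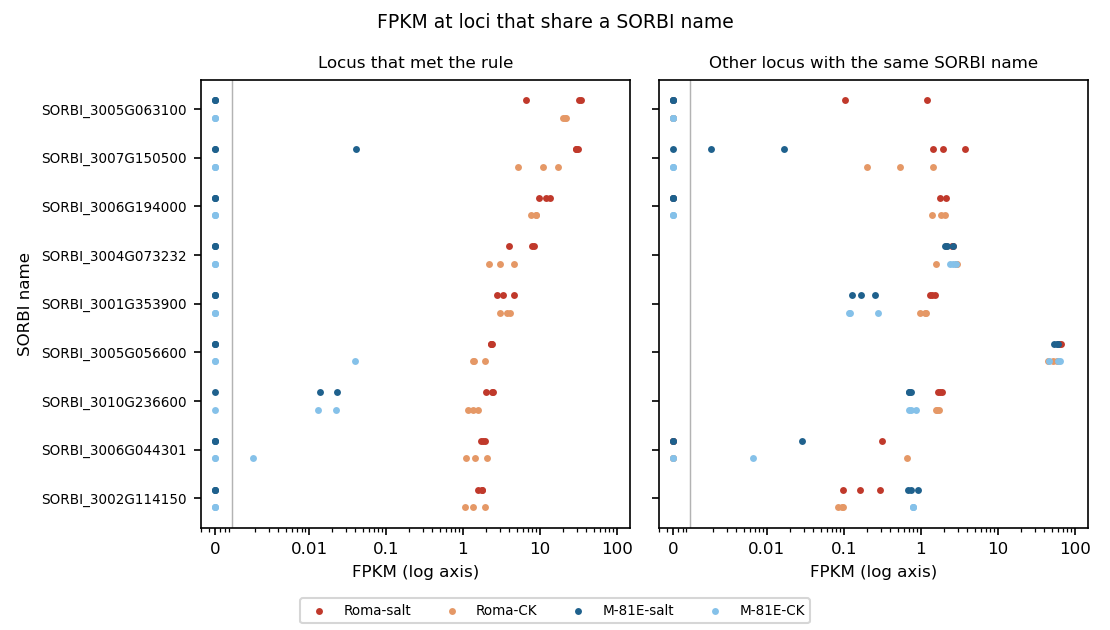
FPKM on a log axis of the loci that met the rule (left) and of another locus with the same SORBI name (right), with 1 point per library. Points left of the grey line are listed at 0 and overlap, only 1 of the 2 loci named SORBI_3006G044301 is drawn on the left, and the second locus of SORBI_3005G056600 stands between 45.1 and 66.4 FPKM in both lines.

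The gene names placed 9 loci on chromosome 4 (24.3%), 6 on chromosome 5 (16.2%) and 6 on chromosome 6 (16.2%), against 11.8%, 4.74% and 8.79% of the SORBI loci expressed throughout Roma. Chromosomes 2 and 10 held 4 each, chromosome 1 held 3, chromosomes 7 and 8 held 2 each, chromosome 3 held 1 and chromosome 9 held 0, against 8.46% of the background on chromosome 9. On chromosome 6, SORBI_3006G043901, both SORBI_3006G044301 loci and SORBI_3006G044932 followed each other with 3, 1 and 6 other SORBI loci between them. Coordinates are not part of the table, so position is given by gene number only.

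The surroundings of the loci, which include second loci with the SORBI name of a member, were also unequal between the lines. Of the 71 SORBI loci directly next to a member, 18 (25.4%) had all Roma libraries above all M-81E libraries, against 14.8% of all other SORBI loci, and 9 (12.7%) had all M-81E libraries above all Roma libraries, against 4.63%. At least 1 FPKM in every M-81E library was seen at 16 of the 71, and 15 of the 37 loci had such a neighbour on at least 1 side. The share of all SORBI loci that reach this limit in M-81E was not computed. In Roma, 12418 of the 30167 SORBI loci had at least 1 FPKM in every library. The counts of 16 and 15 are therefore no evidence that the surroundings were expressed in M-81E as widely as other loci.

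The response to salt was compared between Roma-salt and Roma-CK, a contrast that the choice of loci did not use, although the limit of 1 FPKM in all 6 Roma libraries restricts how far a member can fall. The relative depth was lower in every Roma-CK library than in every Roma-salt library, and its effect on loci of low level was not tested. Following the thresholds of the study, a locus was called a differentially expressed gene (DEG) where limma on log2(FPKM + 1) gave p under 0.05 without adjustment and the mean FPKM of the groups differed by 1 or more on the log2 scale. Of the 37 loci, 2 (5.41%) were up-regulated DEGs, against 5.15% of the 32264 loci tested and 2.83% of the SORBI loci expressed throughout Roma. A single locus (2.70%) was a down-regulated DEG, against 4.44% and 3.36%. Together the 3 DEGs stood against 9.60% and 6.19%, so the share among the members (8.11%) was near the background.

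Without the fold threshold, 10 of the 37 loci (27.0%) had an unadjusted limma p under 0.05, against 17.9% of all loci tested and 24.2% of the SORBI loci expressed throughout Roma. Of these, 7 (18.9%) were higher in salt, against 9.49% and 12.3%, and 3 (8.11%) were lower, against 8.39% and 11.9%. After Benjamini-Hochberg adjustment of the limma p over all loci tested, 0 of the 37 stayed under 0.05, against 1.82% and 2.86%. The Roma-salt and Roma-CK libraries did not overlap at 12 loci (32.4%), against 24.6% and 33.0%. The median log2 ratio was 0.12 over the members, against -0.0038 in the SORBI loci expressed throughout Roma, with 19 members positive and 18 negative.

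**Figure D4:**
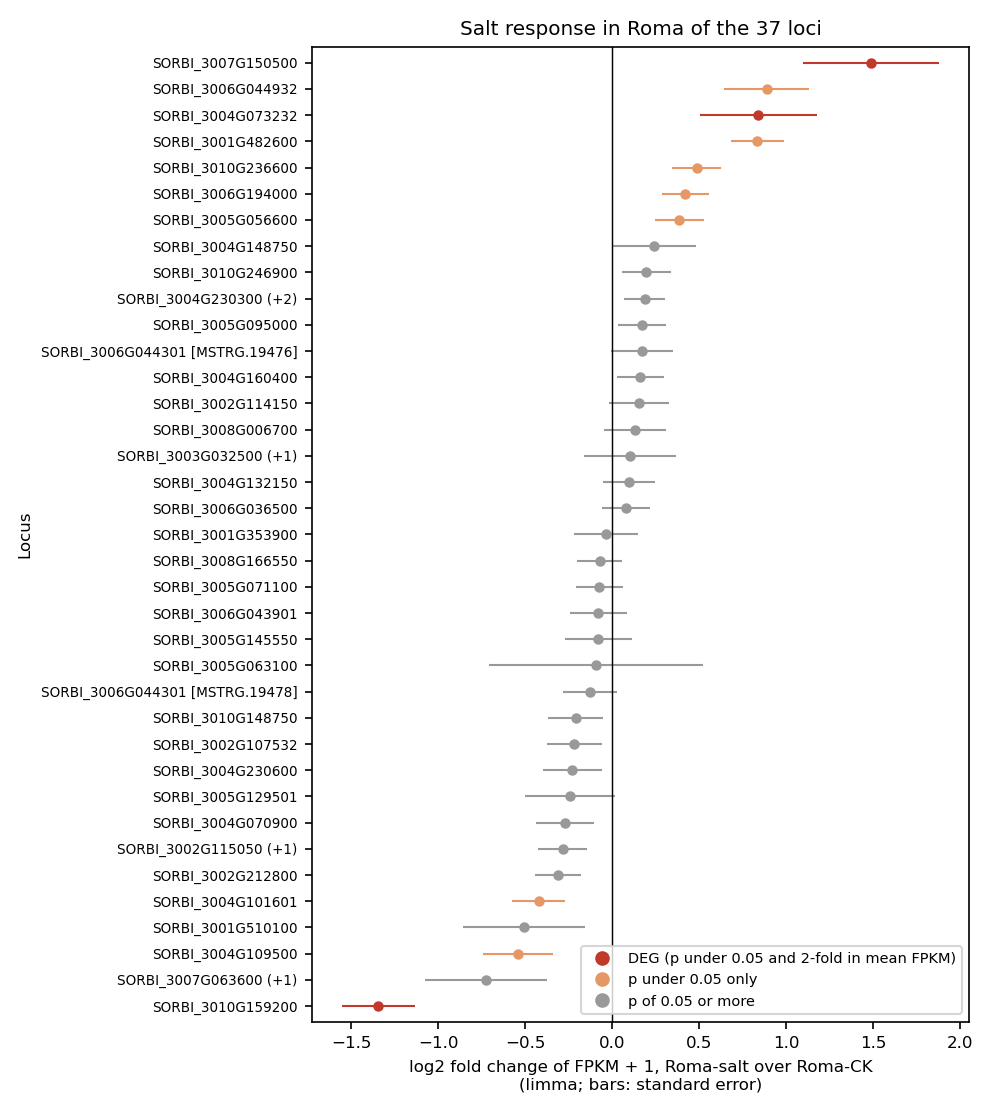
Salt response in Roma of the 37 loci (rows), as the limma log2 fold change of FPKM + 1 in Roma-salt over Roma-CK with its standard error (n = 3 libraries each). The 3 DEGs are dark red, 7 further loci with an unadjusted p under 0.05 are orange, and the estimates run between -1.34 and 1.49.

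The down-regulated DEG was SORBI_3010G159200, an uncharacterized locus with StringTie transcripts only. It had 1.66, 2.26 and 1.21 FPKM in Roma-salt, against 5.52, 4.78 and 7.33 FPKM in Roma-CK, and at most 0.0275 FPKM in M-81E. Every Roma-salt library lay below every Roma-CK library. The mean was 1.71 ± 0.526 FPKM in Roma-salt and 5.88 ± 1.31 FPKM in Roma-CK (SD, n = 3 each), a log2 ratio of -1.78. The limma log2 fold change was -1.34 with a standard error of 0.21, an unadjusted p of 0.000916 and an adjusted p of 0.0501.

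SORBI_3007G150500, also with StringTie transcripts only, was the up-regulated DEG with the larger ratio. It had 29.8, 29.3 and 31.3 FPKM in Roma-salt, against 17.4, 5.18 and 11.03 FPKM in Roma-CK, where the libraries differed 3.35-fold, and was listed at 0 in 5 M-81E libraries. The groups did not overlap, and the means were 30.1 ± 1.04 FPKM in Roma-salt and 11.2 ± 6.10 FPKM in Roma-CK (SD, n = 3 each). The log2 ratio was 1.43, and limma gave a log2 fold change of 1.49 with a standard error of 0.39, an unadjusted p of 0.0103 and an adjusted p of 0.132. A second locus of that name, with an annotated transcript, reached 0.203 to 3.74 FPKM in Roma and at most 0.0167 FPKM in M-81E, and it was a DEG in the same direction with a log2 ratio of 1.70 and an adjusted limma p of 0.257.

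The other up-regulated DEG was SORBI_3004G073232. It had 8.43, 3.93 and 7.81 FPKM in Roma-salt, against 3.01, 4.65 and 2.15 FPKM in Roma-CK, and was at 0 in M-81E. One Roma-salt library lay within the range of Roma-CK. The log2 ratio was 1.04, the limma log2 fold change was 0.84 with a standard error of 0.34, and p was 0.0491 before and 0.277 after adjustment. The call was lost without Roma-CK replicate 1, Roma-CK replicate 3, Roma-salt replicate 1 or Roma-salt replicate 3. The second locus of that name had a limma log2 fold change of 0.00 in salt with a standard error of 0.21.

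**Figure D5:**
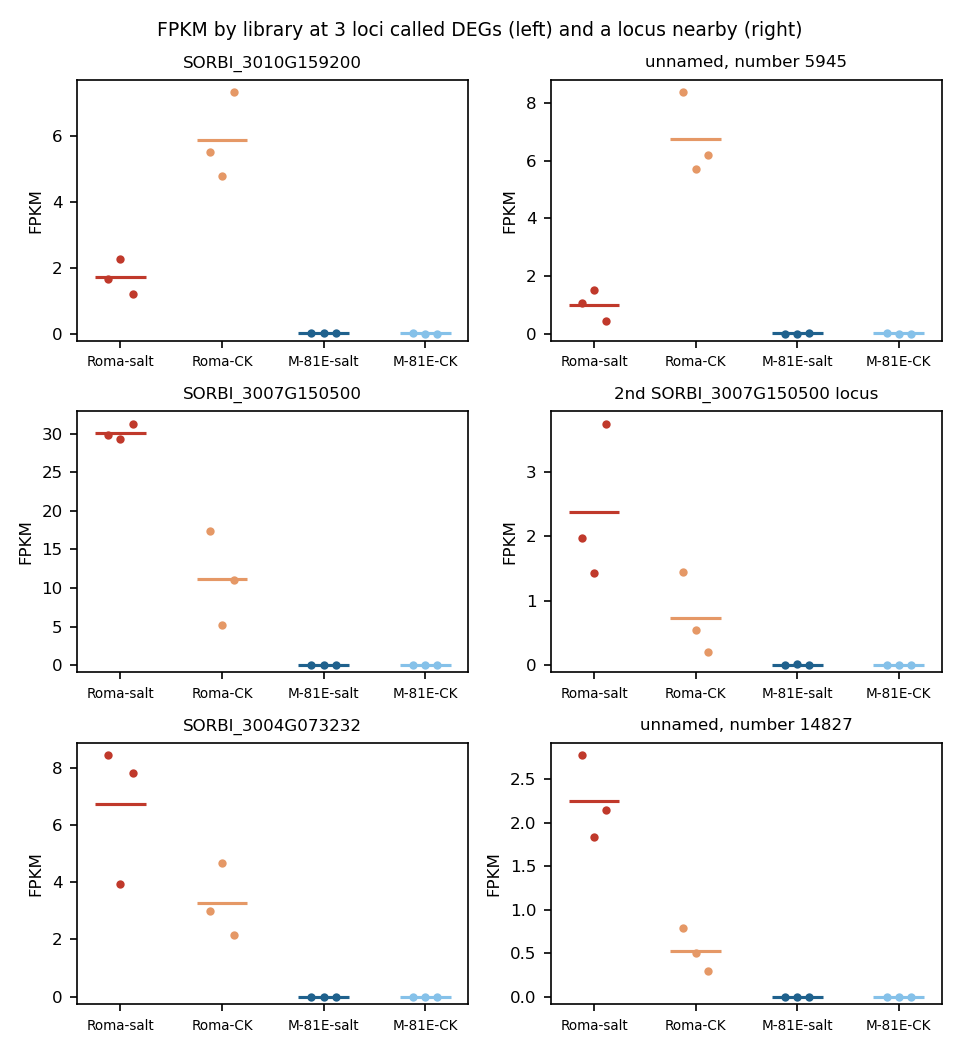
FPKM by library (points, with the group mean as a line) of the 3 DEGs (left) and of a locus with a neighbouring StringTie number (right), on linear axes that differ between panels. The Roma-salt libraries lie below the Roma-CK libraries in the top row, and all M-81E libraries are at or near 0 in every panel.

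The 3 DEGs were among the 9 loci with StringTie transcripts only, against 7.10% of the 324 SORBI loci of that kind expressed throughout Roma. Of the 28 loci with an annotated transcript, 0 were DEGs, against 6.17% of 12094, and 5 had an unadjusted limma p under 0.05 (17.9%), against 24.2%. The members are too few to read a difference from these shares, which were not tested.

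The JAZ gene SORBI_3001G482600 carried most of the increase in the summed level. Its mean was 423 ± 31.3 FPKM in Roma-salt and 237 ± 22.7 FPKM in Roma-CK (SD, n = 3 each), 1.78-fold higher in salt. The log2 ratio of 0.84 did not reach the fold threshold, and limma gave a log2 fold change of 0.83 with a standard error of 0.15, an unadjusted p of 0.00184 and an adjusted p of 0.0647. Among the 16 other JAZ loci, 15 could be tested in Roma. Of these, 0 were up-regulated DEGs and 2 were down-regulated DEGs (SORBI_3001G259300 and SORBI_3003G410300), against 5.15% and 4.44% of all loci tested. The log2 ratios of mean FPKM at these 2 DEGs were -1.65 and -1.24, but the limma log2 fold changes were -0.55 and -0.29. Such a gap arises where FPKM is low against the 1 added in log2(FPKM + 1), so both were loci of low level. Over the 15 loci, the median limma log2 fold change was -0.26. The lowest adjusted limma p among them was 0.0806, at SORBI_3001G259300. At an unadjusted limma p under 0.05, 1 of the other JAZ loci was higher in salt and 3 were lower. The higher locus, SORBI_3001G343900, had a limma log2 fold change of 0.52 with a standard error of 0.15, an unadjusted p of 0.0162 and an adjusted p of 0.162. The lower loci were the 2 DEGs and SORBI_3006G244800, with a limma log2 fold change of -0.32, a standard error of 0.11, an unadjusted p of 0.0328 and an adjusted p of 0.229.

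SORBI_3006G044932 was close to the fold threshold. It had 9.64, 9.76 and 8.71 FPKM in Roma-salt, against 3.98, 3.37 and 7.08 FPKM in Roma-CK, and was at 0 in M-81E. The groups did not overlap. The log2 ratio was 0.96, with an unadjusted limma p of 0.0120 and an adjusted p of 0.142, and the locus became a DEG without Roma-CK replicate 3 or Roma-salt replicate 3.

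The other 3 loci higher in salt at an unadjusted limma p under 0.05 were SORBI_3010G236600, SORBI_3006G194000 and SORBI_3005G056600, with limma log2 fold changes of 0.49, 0.42 and 0.39, standard errors of 0.14 each and adjusted p of 0.156, 0.192 and 0.246. The loci lower in salt were SORBI_3004G109500, whose annotations as a photolyase and a kinase conflict, and SORBI_3004G101601, with limma log2 fold changes of -0.54 and -0.42, standard errors of 0.20 and 0.15 and adjusted p of 0.244 and 0.235. Their groups did not overlap between salt and CK, and the exact two-sided permutation test gave its smallest possible p of 0.1 for each. The limma log2 fold change was -0.27 at SORBI_3004G070900, with conflicting annotations, 0.19 at the locus with the replication protein A ortholog and -0.09 at SORBI_3005G063100. The standard errors were 0.17, 0.12 and 0.61, and the adjusted limma p were 0.463, 0.479 and 0.950. At SORBI_3005G063100 the estimate became 0.63 without Roma-salt replicate 2.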

How the data were processed

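The authors trimmed reads with cutadapt, aligned them with Bowtie2 and TopHat2, used StringTie for transcript assembly and for FPKM values per locus, and deposited these in 1 table. Versions and the genome build are not given in the sources used here. The paper describes strand-specific libraries depleted of ribosomal RNA, whereas the labels name a small RNA kit. Columns were matched to samples by their titles. Whole reads could not be counted from FPKM, so no count model or detection limit was used.

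Salt was tested with limma 3.58.1 (R 4.3.3) on log2(FPKM + 1), with eBayes and a trend, over 32264 loci above 0 FPKM in at least 1 Roma library, with Benjamini-Hochberg adjustment over all of them. Fold changes on this scale understate the change of low loci. Single loci were also compared by an exact permutation test over 20 assignments. Python 3.11.15, numpy 2.4.6, pandas 2.3.3 and matplotlib 3.10.9 were used for the rest.

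The members and lists were chosen with earlier results of these data known. Named were the 10 highest members, the DEGs, the highest 3 of each described functional group, runs of neighbours, the 5 widest gaps between libraries, and loci nearest each threshold. Other members with an unadjusted p under 0.05, loci sharing a name or ortholog, and neighbouring loci were named after their values were seen. GO terms replaced descriptions for the check of the tissue, since no description held the words sought. The RefSeq table matched 0 members, so sequences, promoters and protein copies were not used here.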

Additional observations from a re-analysis of the deposited data

How the results depend on the processing

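SORBI_3010G159200 and SORBI_3007G150500 were DEGs under all 14 alternatives. The 14 include the fit of all 12 libraries, which is no support for these calls, as described below. Over 15 named members and 14 alternatives, 209 of 210 comparisons kept the direction. The exception was SORBI_3005G063100, with -0.09 on the log2 scale, 0.63 without Roma-salt replicate 2 and -0.47 to 0.63 when single libraries were left out. Many of the 210 comparisons could not reverse. The limma fold change stays the same where only the loci tested, the prior variance or the fold threshold changes. It also stays the same with the replicate block and with all 12 libraries in one fit. Up-regulated members numbered 2, but 1 with one prior variance, with the linear model of Ballgown, with the fold threshold on the limma fold change and with a replicate block, and 1 to 2 when single libraries were left out. The member lost was SORBI_3004G073232. Down-regulated members numbered 1, and 1 to 2 when single libraries were left out. SORBI_3001G510100 was added without Roma-CK replicate 1, and the locus of SORBI_3007G063600 and SORBI_3007G063700 without Roma-salt replicate 2. Members with an adjusted limma p under 0.05 numbered 0, but 1 with a pseudocount of 0.1 (SORBI_3010G159200), 2 with loci averaging 1 FPKM or more or one prior variance (SORBI_3001G482600 and SORBI_3010G159200), 7 with all 12 libraries in one fit, whose spread includes the M-81E values that the rule held at or near 0 and which is therefore no support for these calls, and 0 to 1 when single libraries were left out. Adjusted limma p ranged from 0.0261 to 0.249 for SORBI_3010G159200 and from 0.0225 to 0.259 for SORBI_3001G482600 over the alternatives other than that fit. The 3096 DEGs over all loci became 1520 with loci averaging 1 FPKM or more and 990 with the fold threshold on the limma fold change.

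The number of loci that met the rule, 37, became 10 when M-81E had to be listed at 0, 66 with at most 0.1 FPKM in M-81E, 71 with at least 0.5 FPKM in Roma, 15 with at least 2 FPKM in Roma, 23 with a single name at no other locus and 38 to 49 when single libraries were left out. It was 28 with an annotated transcript, an alternative chosen after seeing the data. The labels do not say whether the replicate numbers pair the Roma samples. Deviations of same-numbered libraries correlated at -0.0024, -0.077 and -0.069, and those of differently numbered libraries at -0.030 to 0.10. With 3 libraries a group, these values cannot decide whether the samples were paired. The replicate block left 0 members with an adjusted limma p under 0.05. The alternative without near-identical protein copies was not run, as it needs sequences. With 3 libraries a group and no read counts, the depth behind a locus of 1 to 2 FPKM is unknown.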

Other observations

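StringTie loci that carry no gene name also lay beside the members. Within 2 StringTie numbers of 19 members there were 26 such loci, of which 9 stayed at or below 0.05 FPKM in every M-81E library and exceeded 0.05 FPKM in at least 1 Roma library, although 0 met both thresholds of the rule. All Roma libraries lay above all M-81E libraries at 9 of the 26, and all M-81E libraries above all Roma libraries at 5. The same shares over all unnamed loci were not computed, so these counts cannot be read as particular to the surroundings of the members.

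Of the 26 loci, 24 could be tested for salt in Roma and 2 were DEGs (8.33%), against 9.60% of all loci tested. Each of the 2 lay beside a member that was a DEG in the same direction. MSTRG.5945, next to SORBI_3010G159200, had 1.05, 1.51 and 0.424 FPKM in Roma-salt, against 8.38, 5.70 and 6.19 FPKM in Roma-CK, and at most 0.0273 FPKM in M-81E. Its limma log2 fold change was -1.98 with a standard error of 0.26 and an adjusted p of 0.0354, and all 3 Roma-salt libraries lay below all Roma-CK libraries. MSTRG.14827, next to SORBI_3004G073232, had 2.78, 1.83 and 2.15 FPKM in Roma-salt, against 0.791, 0.497 and 0.294 FPKM in Roma-CK, with 0 listed for M-81E. Its limma log2 fold change was 1.09 with a standard error of 0.19 and an adjusted p of 0.0619.

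MSTRG.19479, beside the SORBI_3006G044301 loci, had 6.80, 6.77 and 8.53 FPKM in Roma-salt and 7.01, 6.76 and 5.99 FPKM in Roma-CK, against at most 0.237 FPKM in M-81E, so it missed the rule by its M-81E value as well as by its missing name. These 3 loci were singled out after their values were seen.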
